A study of Arabidopsis thaliana with 25 samples.

Results

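The plastid-encoded genes are the genes on the small genome that every plastid carries, here the entries of the count table whose identifier starts with ATCG. The table held 140 such entries among 38676 Arabidopsis thaliana entries. The members described here are the 111 with a summed count of at least 100 over the 25 libraries. Of the others, 28 had no count in any library, and the joined entry ATCG00930-ATCG00940-ATCG00950 fell just outside with 52 counts, whereas ATCG00090 fell just inside with 119. RNA was counted in the seed leaves (cotyledons) of wild-type seedlings that had grown for 5 days in darkness (D) or under long days (L). Other dark-grown seedlings then had continuous light for 1 h, 6 h or 24 h. There were 5 libraries per group, numbered as biological replicates 1 to 5. All groups grew on diluted MS medium, were fixed in acetone before the cotyledons were dissected, and had Drosophila cells added before RNA extraction. No dark group was kept alongside the seedlings moved to light, so at 1 h, 6 h and 24 h light cannot be told apart from age. D and L had both grown for 5 days. Light cannot be told apart from hour of day. L differs from 24 h in day length and in having grown for 5 days under long days and not in darkness.

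Plastid genes are read by a bacterial-type polymerase whose core is encoded in the plastid itself and by phage-type polymerases encoded in the nucleus. Nuclear-encoded sigma factors guide the bacterial-type enzyme to promoters, and nuclear-encoded polymerase-associated proteins (PAPs) bind its core as dark-grown tissue greens. The products are subunits of the photosystems, the cytochrome complex, ATP synthase, the NDH complex and Rubisco, ribosomal proteins, the core of the bacterial-type polymerase, a few other proteins, and ribosomal and transfer RNAs. Many of the proteins work in complexes with nuclear-encoded partners. Neither the count table nor the reference annotation pairs most ATCG identifiers with a gene name, so members are called by identifier. For 6 members a name came from reference notes that list them as the best match of a nuclear protein. They are ATCG00430 (photosystem II reaction center protein G), ATCG00530 (CemA-like proton extrusion protein-related), ATCG00670 (plastid-encoded CLP P, the proteolytic subunit of a stromal protease), and the ribosomal proteins L20 (ATCG00660), S11 (ATCG00750) and L2 (ATCG01310). These names are printed as the notes give them and were not checked against another source. They may be outdated and do not assign a member to a complex.

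Libraries held 17901840 to 24085995 counts, and Drosophila took 0.184% to 4.03% of them, highest in dark replicate 1 and lowest in L replicate 2. Levels are spike-scaled CPM, in which the library size is set by the Drosophila counts. They follow the amount of RNA per added fly cell, and the sources used here do not give the amounts of tissue and fly cells per extraction. In these bulk samples fewer cells of a type and less RNA per cell cannot be told apart. Summed levels of 4 green mesophyll marker genes ran from 4500 to 23200 CPM in dark and from 145000 to 331000 CPM in L, and their part in the plastid changes was not tested. The sums of 5 root markers (0 to 12.8 CPM) and 6 shoot meristem markers (1.77 to 12.9 CPM) stayed low in every library, and no marker of these lists was at 0 throughout. No gene length was available, so levels are compared between libraries and not between genes.

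Replicates 1 and 2 stood apart from replicates 3 to 5 in every group. Plastid entries took 0.549% to 4.10% of the Arabidopsis counts in the 10 libraries of replicates 1 and 2, and 3.83% to 16.0% in the 15 libraries of replicates 3 to 5. Within each group the ranges did not overlap. In dark the share was 2.69% and 4.10% in replicates 1 and 2, and 8.02%, 8.43% and 8.74% in replicates 3 to 5. In L it was 0.549% and 0.772% against 5.36%, 3.83% and 4.27%. The sources used here do not say what separated the sets in the laboratory. Each result below is therefore given over all 5 replicates and within each set.

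Relative to the fly yardstick the summed plastid counts were higher in L than in dark in both sets, while their share of Arabidopsis counts was lower. Plastid counts per Drosophila count averaged 1.01 ± 0.528 (SD, n = 2) in dark and 3.36 ± 1.14 in L in replicates 1 and 2, and 6.13 ± 0.920 (SD, n = 3) and 15.9 ± 3.16 in replicates 3 to 5. At 6 h the 3 replicates of the second set averaged 6.12 ± 1.57, close to their dark value, and at 24 h 12.8 ± 3.90. The share of Arabidopsis counts averaged 3.39% in dark and 0.660% in L in replicates 1 and 2, and 8.40% and 4.49% in replicates 3 to 5. The highest shares of all, 11.6% to 16.0%, were those of replicates 3 to 5 after 1 h of light.

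**Figure D1:**
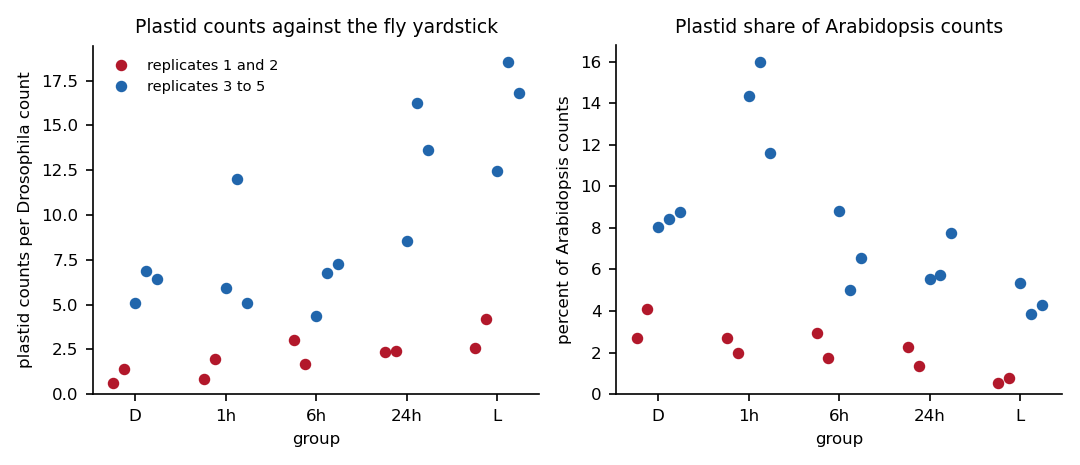
Plastid counts per Drosophila count (left) and as a percentage of Arabidopsis counts (right) in each of the 25 libraries, by group on the horizontal axis; each point is 1 library, red for replicates 1 and 2 and blue for replicates 3 to 5. On the left L has the highest mean of each colour (3.36 and 15.9), and on the right the lowest (0.660% and 4.49%).

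The difference between the replicate sets was not shared evenly by the members. It is given as a description, with no test. The mean difference in log2 level over the 5 groups, replicates 3 to 5 minus replicates 1 and 2, was above 3 in 32 of 111 members, between 1 and 3 in 24, between -1 and 1 in 29, between -3 and -1 in 22 and below -3 in 4. Among 20454 nuclear genes 97.4% lay between -1 and 1, and 5 lay above 3. A mean over groups can hide differences of opposite sign. Nuclear counts per Drosophila count in dark were 23.1 and 32.4 in replicates 1 and 2, and 58.5, 74.7 and 66.7 in replicates 3 to 5. In L they were 462 and 536 against 219, 466 and 377. The largest values were 8.20 for ATCG00220, 8.17 for ATCG01130 and 7.80 for ATCG00790. The lowest were -6.29 for ATCG00280 and -5.23 for ATCG01160. In order of identifier, all 10 members from ATCG00740 to ATCG00830 were above 3, as were the 5 members from ATCG00420 to ATCG00480.

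The sets thus drew their plastid counts from different entries. The 32 members above 3 held a median of 4.93% of the plastid counts (range 3.48% to 7.16%) in replicates 1 and 2, and 91.4% (78.5% to 94.7%) in replicates 3 to 5. The 26 members below -1 held 69.6% and 3.11%. In replicates 1 and 2 the entries with the most counts were ATCG01210 (21.2% of plastid counts), ATCG00950 (19.1%), ATCG01180 (18.1%) and ATCG00920 (15.5%). In replicates 3 to 5 they were ATCG00790 (19.0%), ATCG00470 (16.7%), ATCG01020 (12.3%) and ATCG00220 (6.38%). The level of ATCG00790 in dark was 19.9 and 58.0 CPM in replicates 1 and 2 but 8110, 14220 and 11980 CPM in replicates 3 to 5. ATCG01180 in dark went the other way, with 1554 and 2346 CPM against 277, 136 and 9.90 CPM. Of the named members, ATCG00430 (5.85), ATCG00750 (5.46) and ATCG01310 (5.01) were above 3 on the log2 scale, while ATCG00670 (2.64), ATCG00660 (1.67) and ATCG00530 (1.46) were not.

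**Figure D2:**
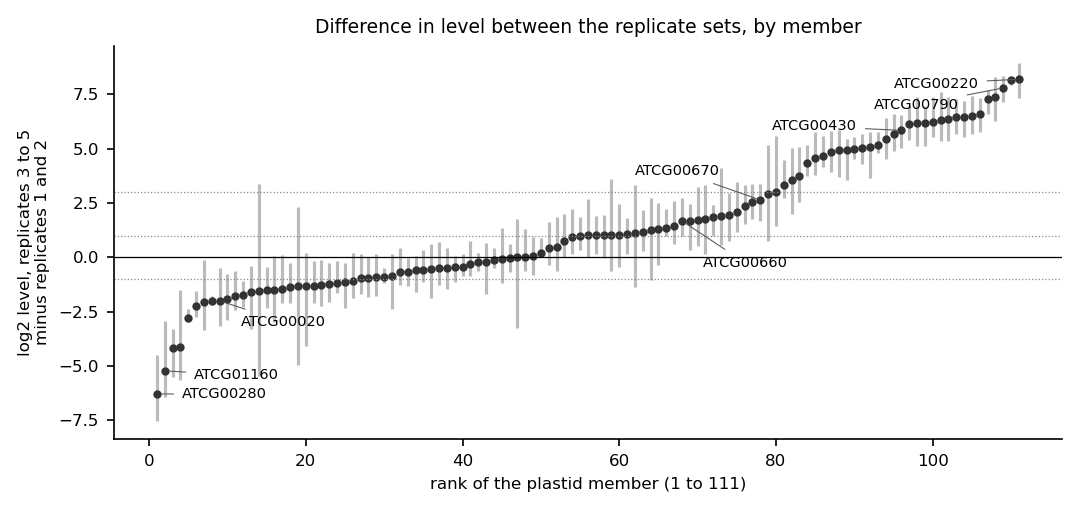
Difference in log2 level (spike-scaled CPM plus 0.5) between replicates 3 to 5 and replicates 1 and 2 for the 111 members in rank order; points are means over the 5 groups, grey bars run from the lowest to the highest group, and dotted lines mark -1, 1 and 3. Members run from -6.29 (ATCG00280) to 8.20 (ATCG00220), and 32 lie above 3.

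Changes with light were tested for 107 members. ATCG00090, ATCG00510 and 2 joined entries did not pass the low-count filter. ATCG00510 had 833 counts but was at 0 in 22 libraries. Against dark no member passed after 1 h, 13 rose after 6 h, 38 after 24 h and 59 in L, and none fell in any of the 4 comparisons. A gene was called at an edgeR quasi-likelihood p, adjusted by Benjamini-Hochberg over 20615 genes, under 0.05. Over all those genes the calls for higher were, in the same order, 3.06%, 21.4%, 50.3% and 84.9%, and the calls for lower were 0.994%, 5.05%, 3.76% and 1.96%. The members' shares were 0%, 12.1%, 35.5% and 55.1% for higher. In this fit the members' share was below that of all genes each time, but the order depended on the fit. With the replicate block described below it turned at 24 h (71.0% against 59.0%) and in L (88.8% against 86.4%). With a term for the replicate set it turned at 24 h (62.6% against 52.9%) but not in L (85.0% against 85.4%). In replicates 1 and 2 alone it turned at 24 h (64.2% against 61.1%) but not in L (82.1% against 87.8%). In replicates 3 to 5 alone it turned in L (67.6% against 64.2%) but not at 24 h (27.6% against 28.2%). At an unadjusted p under 0.05, 1 member was higher at 1 h and none lower, and over the other 3 comparisons 1 was lower, at 24 h. Libraries of the 2 groups did not overlap for 1 member at 6 h (10.6% of all genes were higher without overlap and 3.27% lower), 26 at 24 h (35.7%) and 42 in L (68.0%).

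The size of the change is read against all genes, since most genes rose relative to the fly RNA in L. In the same order the median log2 change of the members was 0.396, 0.448, 1.23 and 1.81. The median of all genes was 0.0284, 0.561, 1.19 and 2.35. TMM scaling, which centres libraries on the bulk of the Arabidopsis genes, took the median of all genes to 0.0109, 0.00482, -0.0381 and -0.0212, and that of the members to 0.355, 0.0218, 0.032 and -0.389. Relative to the median gene the members thus stood at 0.367, -0.113, 0.0473 and -0.543 under fly scaling, and at 0.344, 0.017, 0.0701 and -0.368 under TMM. Under TMM no member passed at 1 h (8.94% of all genes higher and 5.21% lower). Under TMM 7 members rose at 6 h (26.9% of all genes) with none lower (25.9%), 5 rose at 24 h (27.0%) with 1 lower (27.8%), and in L 3 rose (28.6%) and 1 fell (28.1%). Since TMM centres the median gene near 0, 42.3% of all genes called higher in L under fly scaling had a negative value under it, as had 37 of the 59 members (62.7%). At 24 h these were 10.4% of all genes called higher and 6 of 38 members (15.8%), and at 6 h none of either. TMM with a term for the replicate set, a fit chosen after seeing the data, called more members than TMM alone. In L it gave 7 higher (31.0% of all genes) and 27 lower (30.8%, against 25.2% of the members). At 24 h it gave 11 higher (29.4%) and 5 lower (30.3%), at 6 h 12 higher (29.6%) and 6 lower (28.4%), and at 1 h 1 higher (10.9%) and none lower (6.93%).

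Same-numbered libraries of dark, 1 h, 6 h and 24 h deviated together, so the replicate number was also used as a block. With the block 25 members rose at 6 h (28.2% of all genes) and 76 at 24 h (59.0%), including all 13 and all 38 of the unblocked calls, and none fell (7.48% and 4.62%). At 1 h it gave none in either direction (3.47% higher and 1.61% lower over all genes). As a share of the 107 members, the 76 called at 24 h were 71.0%, above that of all genes. A term for the replicate set in place of the number gave 67 higher at 24 h, 62.6% of the members against 52.9% of all genes, and none lower (3.95%). In L it gave 91 higher, 85.0% against 85.4%, and 1 lower (2.08%). The members with the widest gap between the sets gained the most calls in L, since 1 of the 32 above 3 was called there without the term and 24 with it. At 6 h it gave 17 higher (23.8%) and 1 lower (5.38%), and at 1 h none higher (3.22%) and 1 lower (1.07%). Without 24 h replicate 2 the count at 24 h was 23, and without dark replicate 1 or 6 h replicate 5 the count at 6 h was 8. For these fits with 1 library left out, shares over all genes are not given.

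The sets were also fitted alone, and in L most members rose in each. In replicates 1 and 2, 42 of 106 members rose at 6 h (39.6%, against 39.8% of all genes there). There 68 rose at 24 h (64.2%, against 61.1%) and 87 in L (82.1%, against 87.8%). Lower were 0 (1.13% of all genes), 1 (2.03%) and 2 (0.993%). At 1 h 1 member rose there (8.31%), ATCG00560, by 3.57, and none fell (0.303%). In replicates 3 to 5, 6 of 105 members rose at 6 h (5.71%, against 8.54% of all genes there). In that set 29 rose at 24 h (27.6%, against 28.2%) and 71 in L (67.6%, against 64.2%). Lower were 2 (5.52% of all genes), 0 (3.39%) and 1 (2.30%). At 1 h none rose in that set (1.22%) and 2 fell (1.69%), ATCG00270 and ATCG00960. Members called higher in both sets numbered 5 at 6 h, 23 at 24 h and 62 in L. Of 104 members fitted in both sets, the numbers with both values positive were 56, 49, 97 and 101 in the 4 comparisons with dark. Shares over all genes are not given for the counts in both sets, so these are not read as results about the members. The median change of the members in L was 2.72 in replicates 1 and 2, where all genes had 3.73, and 1.69 in replicates 3 to 5, where all genes had 1.64. In replicates 3 to 5 after 1 h the members' median was 0.114 while that of all genes was -0.583.

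**Figure D3:**
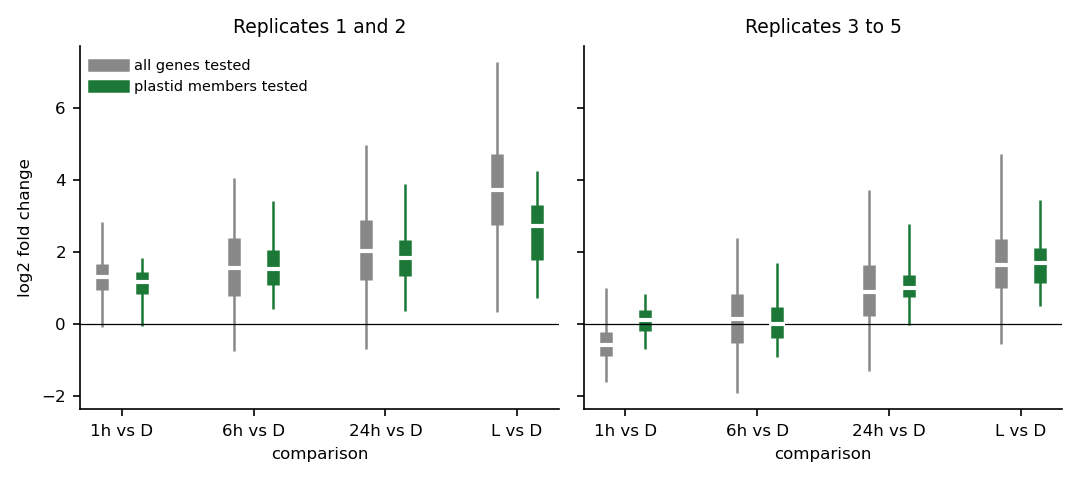
Log2 fold change against dark within replicates 1 and 2 (left) and within replicates 3 to 5 (right), for all genes tested in grey and the plastid members tested in green; thick bars span the middle quartiles of the genes, thin lines the 5th to 95th percentile, and white ticks the median. In L the members' median is 2.72 against 3.73 for all genes on the left, and 1.69 against 1.64 on the right.

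In both sets L had the highest group mean for most members, as it had for most genes. It was highest for 81 of the 107 tested members in replicates 1 and 2 (75.7%, where all genes had 90.6%) and for 87 in replicates 3 to 5 (81.3%, against 85.7%), with 68 members in common (63.6%, against 82.6%). The lowest group mean was that of dark for 97 members in replicates 1 and 2 (90.7%, against 84.1% of all genes). In replicates 3 to 5 it was that of 6 h for 48 members (44.9%, against 15.3%), of dark for 34 (31.8%, against 14.1%) and of 1 h for 23 (21.5%, against 65.3%). A steady increase over dark, 6 h, 24 h and L was seen in 65 members of the first set (60.7%, against 69.8%) and 37 of the second (34.6%, against 45.4%). These are counts of means, with no test.

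**Figure D4:**
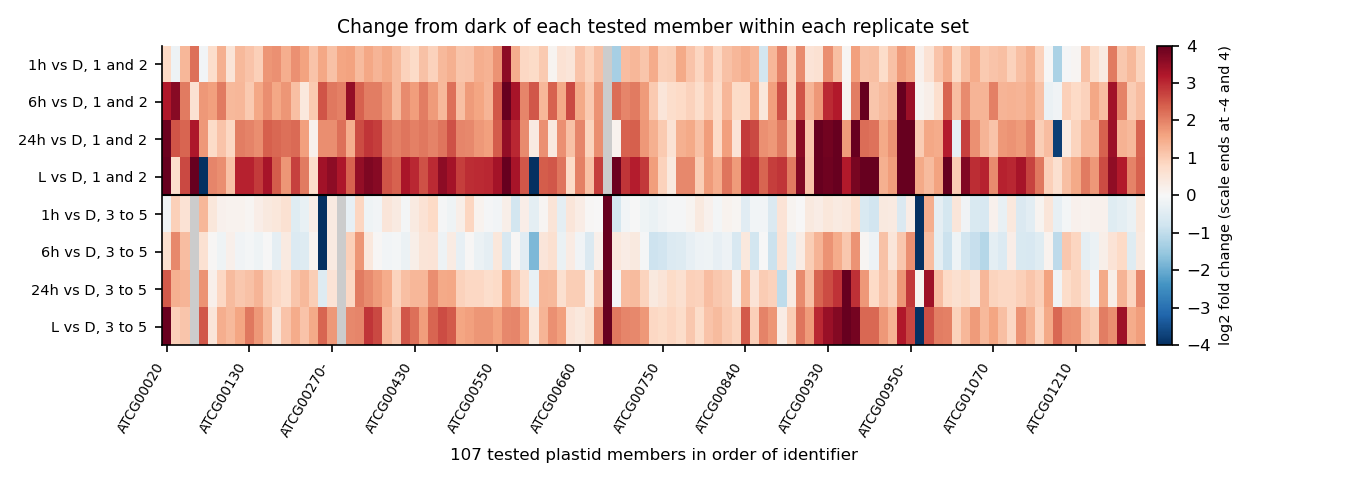
Log2 fold change against dark for the 107 tested members, 1 column each in order of identifier, in replicates 1 and 2 (upper 4 rows) and replicates 3 to 5 (lower 4 rows); red is higher than dark, blue lower, grey not fitted, and colours end at -4 and 4. The upper rows are red for most members from 1 h on. In that set the median of all genes was 1.32 at 1 h and 1.56 at 6 h, against 1.16 and 1.54 for the members. The lower rows are pale at 1 h and 6 h and turn red at 24 h and in L. In L both values were positive for 101 of 104 members, and the share over all genes is not given.

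ATCG00020 had the largest increase in L among members with counts in dark. It measured 25.9, 64.9, 31.5, 26.5 and 28.1 CPM in dark replicates 1 to 5, and 1915, 2894, 578, 269 and 492 CPM in L. The groups did not overlap, and replicates 1 and 2 were the highest of L. Its log2 change was 5.12 ± 0.83 (SE; edgeR adjusted p = 2.06e-06) over all replicates, 5.73 in replicates 1 and 2 and 3.96 in replicates 3 to 5. Under TMM it still rose, by 2.14 (adjusted p = 0.0351), and relative to all plastid counts by 3.92 (adjusted p = 0.0138). At 6 h the libraries held 584, 254, 57.6, 24.5 and 53.1 CPM, and at 24 h 580, 795, 281, 94.2 and 91.7 CPM. The change was 2.46 ± 0.74 at 6 h (adjusted p = 0.0124) and 3.38 ± 0.77 at 24 h (adjusted p = 0.000516). The call at 6 h was lost without 6 h replicate 1, where the value was 1.46. In replicates 3 to 5 alone ATCG00020 rose at 24 h by 2.44 (adjusted p = 0.000848), and its difference of 0.65 at 6 h did not pass (0.469).

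ATCG00940 rose from 6 h on. It held 12.5, 69.4, 141, 144 and 198 CPM in dark, and 41.9, 297, 592, 462 and 625 CPM at 6 h. At 24 h it held 444, 854, 1049, 1119 and 1514 CPM, and in L 388, 752, 2234, 2245 and 2393 CPM. All libraries at 24 h and in L lay above all dark libraries. The log2 change was 1.84 ± 0.65 at 6 h (edgeR adjusted p = 0.0326), 3.14 ± 0.68 at 24 h (0.000311) and 3.83 ± 0.70 in L (1.16e-05). It passed in each set alone at all 3 times, and under TMM with 1.70, 2.04 and 1.87. At 6 h the call was not kept when any of 6 libraries was left out, namely replicates 1, 2 and 3 of dark and 3, 4 and 5 of 6 h, with values from 1.55 to 2.14 over the 10 libraries. The table joins several identifiers of this stretch in combined entries: ATCG00910 to ATCG00980 appear in 20 entries, alone or joined, and the sources used here do not say how counts were divided among them. Of the joined entries, ATCG00920-ATCG00930 changed by 3.63 ± 0.61 at 24 h (adjusted p = 1.11e-05) and by 3.5 ± 0.61 in L (5.31e-06). ATCG00950-ATCG00960-ATCG00970, at 0.354 to 1.85 CPM in dark and 5.03 to 47.7 CPM in L, rose by 4.32 ± 1.02 in L (0.000267), with 5.04 and 3.19 in the sets, and its TMM value of 1.49 did not pass. The sum of all 20 differed by 1.31 ± 0.53 at 6 h, which did not pass (0.0653), and rose by 1.59 ± 0.54 at 24 h (adjusted p = 0.0138) and 1.85 ± 0.54 in L (0.00224).

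ATCG00340 and ATCG00350, also next to each other in number, moved alike. ATCG00340 held 9.16, 24.8, 15.2, 9.46 and 13.8 CPM in dark and 172, 285, 70.4, 94.7 and 116 CPM in L. The log2 change in L was 3.35 ± 0.62 (edgeR adjusted p = 1.44e-05) for ATCG00340 and 3.16 ± 0.60 (1.77e-05) for ATCG00350, with no overlap in either. At 24 h both rose as well, by 2.43 and 2.27. Under TMM the values in L were 0.49 and 0.34 and did not pass.

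Of the entries with the most counts in replicates 1 and 2, ATCG01210 held 1639, 2767, 899, 344 and 382 CPM in dark and 5271, 7378, 2049, 1230 and 2389 CPM in L, a log2 change of 1.60 ± 0.70 (edgeR adjusted p = 0.0325) that was -1.61 under TMM. It no longer passed when replicate 3, 4 or 5 of dark, or replicate 1 or 2 of L, was left out. ATCG00950 rose by 1.57 ± 0.51 in L (0.00533), and its TMM value was -1.26. Among those with the most counts in replicates 3 to 5, ATCG00470 differed by 2.34 ± 1.45 in L (0.126) and passed in each set, with 2.98 and 2.34. It held 23.5 and 34.8 CPM in dark and 213 and 244 CPM in L in replicates 1 and 2, but 5745, 5835 and 6475 CPM and 27840, 24650 and 38730 CPM in replicates 3 to 5. ATCG00790 differed in L by 0.72 ± 1.46 (0.639) and passed in neither set.

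ATCG00430 held 1.96, 6.31, 320, 434 and 404 CPM in dark and 23.3, 43.5, 1515, 1772 and 2081 CPM in L. Its name in the reference note, photosystem II reaction center protein G, was not checked, so its values are not read as a photosystem II result. Each set rose in L, by 3.02 on the log2 scale in replicates 1 and 2 (edgeR adjusted p = 0.000102) and by 2.21 in replicates 3 to 5 (0.000416). Over all 5 replicates, where the 2 sets lie far apart in level, the same change of 2.22 ± 1.26 did not pass (adjusted p = 0.0967), and with a term for the replicate set it did (4.84e-06). Under TMM the change was 0.60 and did not pass. At 24 h the values in the sets were 2.01 (adjusted p = 0.0123) and 1.34 (0.0301).

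ATCG00530, the CemA-like member, rose in L with all L libraries above all dark libraries, although its TMM value was -0.0011. It held 5.24, 15, 55, 53.2 and 59.3 CPM in dark and 62.9, 97, 176, 148 and 240 CPM in L. The log2 change was 1.95 ± 0.56 (edgeR adjusted p = 0.00198), with 2.98 and 1.75 in the sets.

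Of the 3 named ribosomal protein members, L2 (ATCG01310) was called within each set at 24 h and in L, L20 (ATCG00660) in replicates 1 and 2 alone, and S11 (ATCG00750) in neither. ATCG01310 held 6.37, 14.8, 326, 682 and 486 CPM in dark and 40.8, 66.3, 1096, 2752 and 1783 CPM at 24 h. Its change at 24 h was 2.34 in replicates 1 and 2 (edgeR adjusted p = 0.00533) and 1.92 in replicates 3 to 5 (0.0101), and in L 2.35 (0.00239) and 1.69 (0.0112). Under TMM over all replicates it was 0.96 at 24 h and -0.02 in L, neither of which passed. ATCG00660 changed by 2.02 in L in replicates 1 and 2 (adjusted p = 0.00706) and by 0.44 in replicates 3 to 5 (0.449), and under TMM it fell by 1.30 over all replicates (0.0495). ATCG00750 differed in L by 0.93 (adjusted p = 0.2) and 0.78 (0.287), and by -1.02 under TMM.

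ATCG00670, the plastid-encoded CLP P, passed neither in L nor earlier in the fit of all replicates. It held 15.5, 28.9, 216, 238 and 219 CPM in dark, and 40.1, 58.8, 262, 453 and 337 CPM in L. The log2 difference in L was 0.68 ± 0.73 (edgeR adjusted p = 0.374), with 1.16 (0.125) and 0.64 (0.231) in the sets and -1.18 under TMM. At 6 h it was lower than in dark in each of replicates 3 to 5, at 112, 183 and 159 CPM, with a value of -0.57 in that set that did not pass (adjusted p = 0.502).

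ATCG00030 had its highest mean at 6 h. It held 4.19, 11.4, 19.6, 24.3 and 61.5 CPM in dark, 145, 48.9, 288, 41.6 and 70.8 CPM at 6 h, and 13.3, 12.3, 65.0, 110 and 29.7 CPM in L. The 6 h libraries overlapped the dark ones through dark replicate 5. The log2 change at 6 h was 2.30 ± 0.71 (edgeR adjusted p = 0.0155), 3.64 and 1.93 in the sets, both of which passed, and 2.57 under TMM (0.0207). It lost the call without 6 h replicate 3, at 1.66. In L the difference was 0.93 ± 0.69 (adjusted p = 0.2) under fly scaling and -1.03 under TMM.

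**Figure D5:**
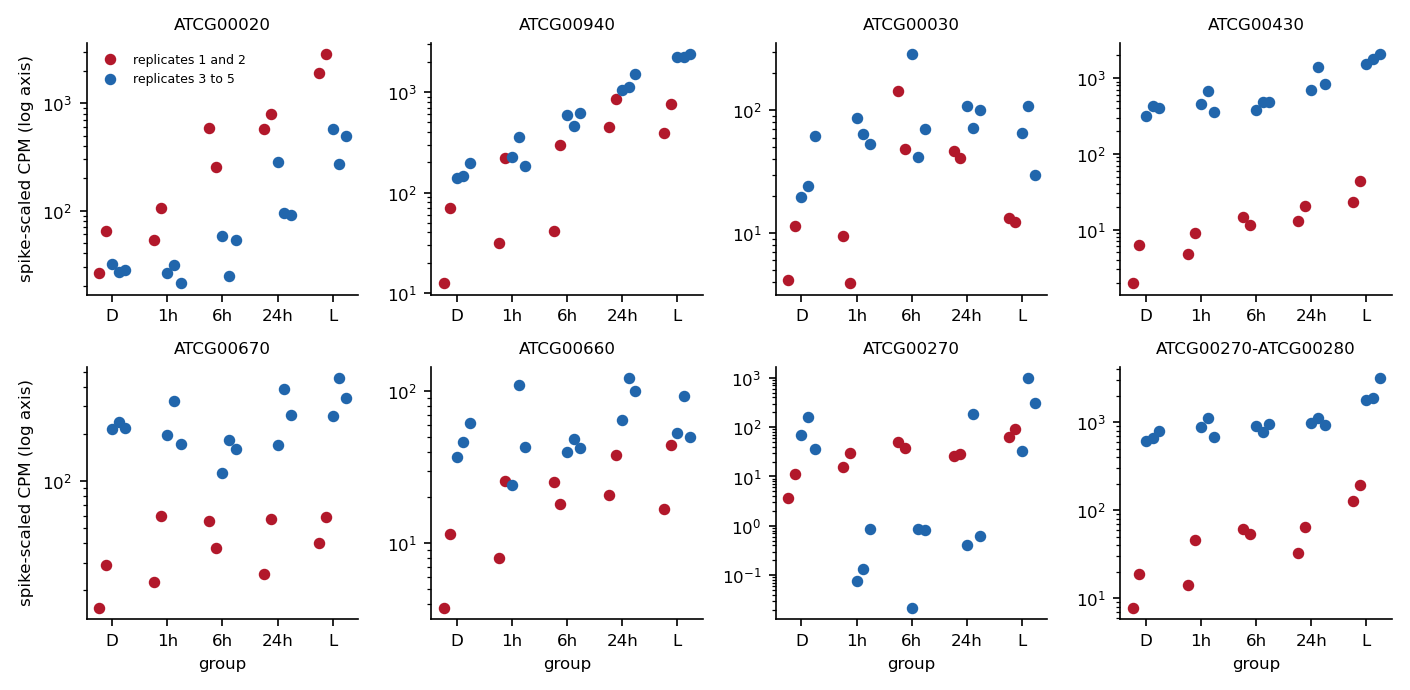
Spike-scaled CPM on a log axis in each of the 25 libraries for 8 members, by group; each point is 1 library, red for replicates 1 and 2 and blue for replicates 3 to 5. ATCG00020 climbs to 2894 in L with red above blue, ATCG00430 and ATCG00670 have blue above red in every group, and blue points of ATCG00270 drop below 1 at 1 h and 6 h.

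The entry ATCG00270 was called in opposite directions in the sets at 6 h. In replicates 3 to 5 it held 68.1, 162 and 35.8 CPM in dark, 0.0751, 0.133 and 0.877 CPM at 1 h, and 0.0219, 0.857 and 0.832 CPM at 6 h. In the same libraries the joined entry ATCG00270-ATCG00280 held 615 to 784 CPM in dark, 679 to 1103 CPM at 1 h and 778 to 954 CPM at 6 h. Within this set ATCG00270 fell by 7.88 on the log2 scale at 1 h (edgeR adjusted p = 0.00252) and by 7.38 at 6 h (0.000992). In replicates 1 and 2 it rose at 6 h, by 2.53 (adjusted p = 0.00492). The difference between the sets in these changes was -9.45 at 1 h (adjusted p = 0.0725) and -9.91 at 6 h (0.216). The 3 entries summed gave 0.25 ± 0.82 at 1 h and 0.30 ± 0.82 at 6 h over all replicates (adjusted p = 1 and 0.821). ATCG00280 itself held 6.43 to 150 CPM in replicates 1 and 2 and at most 0.209 CPM in replicates 3 to 5.

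A few members rested on single libraries. ATCG00690 had no count in any dark library, and its counts in light came from 1 library at 1 h (32.8 CPM, replicate 5), 2 at 6 h (56.0 and 67.0 CPM, replicates 2 and 5), 1 at 24 h (148 CPM, replicate 4) and 1 in L (123 CPM, replicate 3). Pooled over the group, L was at least 3460-fold higher than a floor of 3 counts over all dark libraries, and 6 h at least 1900-fold. The test called it at 6 h, 24 h and in L, but without 24 h replicate 4 or L replicate 3 no count was left in the group. ATCG00940-ATCG00950 held 232 CPM in 6 h replicate 1 against 0.635 to 2.77 CPM in the other 6 h libraries. Its call at 6 h, 5.55 ± 1.08 (edgeR adjusted p = 0.000192), was lost without that library, at 0.62. In L it held 3.44 to 16.4 CPM, above the 0.726 to 1.17 CPM of dark, and rose by 3.23 ± 0.98 (adjusted p = 0.00298).

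The change from dark was compared between the sets by the interaction of group and set, in 1 fit of all libraries. No member differed at 1 h or 24 h (none of all genes at 1 h, and 0.00485% higher and none lower at 24 h). At an unadjusted p under 0.05 the interaction picked 7 members at 1 h (6.54%, against 60.2% of all genes), 38 at 6 h (35.5%, against 22.0%), 8 at 24 h (7.48%, against 6.30%) and 13 in L (12.1%, against 59.9%). At 6 h 1 of 107 changed less in replicates 3 to 5 (0.0194% of all genes) and none changed more (0.00485%). In L 1 changed more (0.155%) and 5 changed less (44.4%). The single member at 6 h was ATCG00940-ATCG00950, with its 232 CPM in 6 h replicate 1. In L the lower changes in replicates 3 to 5 included ATCG01010 (-2.72 on the log2 scale, edgeR adjusted p = 0.0271), ATCG01040 (-2.39, 0.0381), ATCG01090 (-2.17, 0.0418) and ATCG00150 (-2.02, 0.0354), which were chosen for mention after their values were seen. The other 2, ATCG00050 and ATCG00960, were at 0 in L in 2 of 2 libraries of the first set and 3 of 3 of the second, respectively. The median difference of the members in L was -0.952, where that of all genes was -2.06.

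Between the lit groups few members passed. From 6 h to 24 h 2 rose (6.82% of all genes) and 1 fell (0.412%), and with the block 12 rose (18.7%) and none fell (0.893%). ATCG00920-ATCG00930 rose by 2.14 ± 0.57 (edgeR adjusted p = 0.0179), from 28.1 to 82.2 CPM at 6 h to 56.6 to 641 CPM at 24 h, and lost the call without 24 h replicate 2, 6 h replicate 1 or 6 h replicate 3, with values down to 1.21. The fall was that of ATCG00940-ATCG00950, which turned to 1.32 without 6 h replicate 1. In L 6 members were higher than at 24 h (52.5% of all genes) and none lower (0.514%). ATCG01300 rose by 1.92 ± 0.61 (adjusted p = 0.0171) from 2.47 to 5.52 CPM to 6.87 to 22.3 CPM, without overlap. ATCG01160, at 17.0 and 40.9 CPM at 24 h and 218 and 1013 CPM in L in replicates 1 and 2, and at 0 to 10.8 and 0 to 71 CPM in replicates 3 to 5, rose by 4.13 ± 1.74 (0.0457), a call lost without any of 8 libraries. ATCG00700 rose by 3.03 ± 1.27 (0.0452), with L replicate 4 at 0, and lost the call without any of 7 libraries. ATCG00020 rose by 1.74 ± 0.72 (0.0427), a call that was lost without any of 6 of the 10 libraries, namely 24 h replicates 1, 3, 4 and 5 and L replicates 1 and 2. Under TMM the medians from 24 h to L were -0.47 for the members and 0.0326 for all genes.

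Nuclear genes whose products work with the plastid-encoded ones were taken as 3 lists. Of 33 nuclear subunits of photosystems, ATP synthase, cytochrome complex, NDH complex and Rubisco, 1, 26, 31 and 33 rose in the 4 comparisons with dark (3.06%, 21.4%, 50.3% and 84.9% of all genes), with a median log2 change of 4.73 in L, where all genes had 2.35. RBCS1B, a Rubisco small subunit gene, rose by 7.39 ± 0.79 in L (edgeR adjusted p = 9.83e-10), and PSBO2, of the oxygen-evolving complex, by 6.52 ± 0.70 (1.1e-09). Under TMM 6, 29, 31 and 31 of the 33 rose (8.94%, 26.9%, 27.0% and 28.6% of all genes), and 1 fell at 6 h and at 24 h. Of 14 nuclear plastid ribosomal protein genes 0, 3, 14 and 14 rose, with PRPL12A at 3.54 ± 0.60 in L (4.01e-06), and 0, 7, 12 and 8 rose under TMM. Of 21 nuclear genes of plastid transcription 1, 9, 18 and 19 rose, and under TMM 3, 15, 13 and 5 rose while 6 fell in L. These 6 of 21 are close to the 28.1% of all genes that were lower there.

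The transcription gene called at 1 h was SIG5, a light-responsive sigma factor. It had a mean of 1.15 ± 0.715 CPM (SD, n = 5) in dark and 103 ± 48.4 CPM at 1 h, a log2 change of 6.5 ± 0.59 (edgeR adjusted p = 2.72e-09), and was at 7.80 ± 0.63 in L (3.56e-12). SIG2 rose from 33.2 ± 22.0 CPM in dark to 122 ± 47.5 CPM at 6 h (1.88 ± 0.51, adjusted p = 0.00617). PAP10, a thioredoxin-like protein of the polymerase complex, rose at 6 h by 2.18 ± 0.54 (0.00292). SIG5, SIG2 and PAP10 also rose under TMM in these comparisons. The 6 that fell in L under TMM were PAP1, PAP3, PAP4, PAP5, PAP7 and PAP8, for which fly scaling gave positive values in L. That of PAP1, 1.18, passed (adjusted p = 0.0495), whereas those of PAP3, 1.15, and PAP4, 1.14, did not (0.0638 and 0.0583).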

How the data were processed

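Total RNA of dissected cotyledons was sequenced with stranded paired-end reads on DNB-seq, per the labels. The authors deposited raw counts per gene for 25 libraries, Arabidopsis and Drosophila together. Tools in the submitters' processing notes are HTSeq, Salmon 1.9.0 and R 4.3.2, with the build TAIR10; their roles are not stated. The sources used here give no annotation, strand setting or RNA selection step, all of which bear on plastid counts, and do not say whether counts are whole reads or rounded Salmon estimates.

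The 1539 entries of neither species (0.119% to 0.741% of counts) were left out. Library size was set by the sum of Drosophila counts with the geometric mean kept at that of the Arabidopsis totals. Genes passing filterByExpr (minimum count 10, minimum total 15) were fitted with edgeR 4.0.16 in R 4.3.3, all 5 groups in 1 fit, and adjusted over 20615 genes. SEs were derived from the F statistic. The script was run on simulated counts with known changes added to the 24 h group. These had less spread than the data and no difference between the replicate sets, so that run does not test the calls for these members.

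Same-numbered libraries deviated together in every pair of dark with 1 h (lowest correlation 0.25), 6 h (0.161) and 24 h (0.297) and of 24 h with 6 h (0.306). In these comparisons the same number was the best match for 3, 2, 3 and 5 of the 5 replicates, in that order. The labels give the number as a biological replicate, without a date or litter. No 2 libraries were identical. P-values cover the spread between libraries, which may in part be technical.

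Every member could be named. Values in each library were given for the members with the largest change among called ones, for those that the reference names and for a few picked after seeing values. The planned grouping by function and a list of 20 genes chosen by symbol could not be applied, since no source here pairs those symbols with identifiers. The members, the replicate sets and the nuclear lists were chosen with earlier results of these data known. The lists came from general knowledge. Alternatives were TMM, scaling to plastid counts, DESeq2 1.42.0 with either set of size factors, no filter, a replicate block, a term for the replicate set, each set alone, the 2 groups compared alone and each library left out. Added after seeing the data were summing joined entries and TMM with the set term.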

Additional observations from a re-analysis of the deposited data

Results flagged for a closer look

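In groups of 5 libraries, 215 combinations of a named member or a plastid sum with a group were examined for 1 library standing apart from the other 4 by Dixon's test (critical value 0.71). Chance flags about 1 in 20 such groups, and 31 were flagged here. Members share libraries, and the replicate sets differ in level, so the flags are not independent.

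Replicate 2 of the 1 h group was the highest library for 10 of these: ATCG00040 (1.09 CPM), ATCG00340 (76.8), ATCG00350 (53.3), ATCG00490 (113), ATCG00930 (352), ATCG00940-ATCG00950 (3.26), ATCG00950 (4045), ATCG00950-ATCG00960-ATCG00970 (6.28), ATCG00960 (46.0) and ATCG01300 (6.08). Nuclear counts per Drosophila count were also highest in 1 h replicate 2, at 95.2 against 30.9 to 62.9 in the other 1 h libraries. Its plastid share of Arabidopsis counts, 2.00%, was the lowest of the 1 h group. The part of this library-wide level in the flags was not tested. Replicate 2 stood highest in dark for ATCG00020 (64.9 CPM), ATCG00490 (38 CPM) and ATCG01160 (654 CPM). In dark ATCG00930-ATCG00940-ATCG00950-ATCG00960-ATCG00970 was also highest there, at 1.10 CPM. At 24 h replicate 2 stood apart for ATCG00920-ATCG00930 (641 CPM) and ATCG00950-ATCG00960-ATCG00970 (67.8 CPM), and in L for ATCG00920-ATCG00930 (342 CPM), ATCG00960 (133 CPM) and ATCG01160 (1013 CPM). At 6 h replicate 2 stood apart for ATCG00950-ATCG00960-ATCG00970 (27.6 CPM).

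Replicate 1 of the 6 h group was highest for ATCG00560 (109 CPM), ATCG00940-ATCG00950 (232 CPM), ATCG01160 (659 CPM) and ATCG01300 (11.3 CPM), and replicate 3 for ATCG00330 (381 CPM). ATCG00690 was seen in 1 library at 1 h (32.8 CPM), at 24 h (148 CPM) and in L (123 CPM). Replicate 4 was highest for ATCG00930-ATCG00940 at 1 h (22.5 CPM) and for ATCG00270 at 24 h (187 CPM). Replicate 3 at 24 h was highest for ATCG00930-ATCG00940-ATCG00950-ATCG00960-ATCG00970 (15.6 CPM).

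The change from dark differed between the replicate sets in the interaction test for 7 members. The difference in log2 change, replicates 3 to 5 minus replicates 1 and 2, was -6.95 at 6 h for ATCG00940-ATCG00950. In L it was -2.02 for ATCG00150, -2.72 for ATCG01010, -2.39 for ATCG01040 and -2.17 for ATCG01090. For ATCG00050 (10.2) and ATCG00960 (-13.1) the fitted values rest on libraries at 0 and their size is not a bound.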

How the results depend on the processing

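The counts of called members depended on the scaling and on how the replicate sets were treated, and the cause was not tested. Numbers of members called higher are given in the order 1 h, 6 h, 24 h and L against dark, 24 h against 6 h and L against 24 h, followed by those called lower in the same order. With fly scaling over all libraries they were 0, 13, 38, 59, 2 and 6 higher, and 0, 0, 0, 0, 1 and 0 lower. TMM gave 0, 7, 5, 3, 0 and 0 higher, and 0, 0, 1, 1, 1 and 2 lower. TMM with a term for the replicate set gave 1, 12, 11, 7, 2 and 0 higher, and 0, 6, 5, 27, 3 and 11 lower. Of all genes the same fit called 10.9%, 29.6%, 29.4%, 31.0%, 12.5% and 8.26% higher. It called 6.93%, 28.4%, 30.3%, 30.8%, 10.7% and 7.01% of them lower. DESeq2 with median-ratio size factors gave 1, 7, 8 and 4 higher against dark and 0 from 24 h to L, with 1 lower at 24 h, 3 in L and 2 from 24 h to L. DESeq2 with Drosophila size factors gave 1 higher at 1 h. Scaling to the plastid total gave 2 higher at 6 h, 5 at 24 h and 4 in L, and between lit groups 0 higher and 0 lower. The term for the replicate set gave 67 higher at 24 h (52.9% of all genes), 91 in L (85.4%), 6 from 6 h to 24 h (8.46%) and 12 from 24 h to L (57.6%). It gave 1, 1, 0, 1, 0 and 1 lower.

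The replicate block gave 25, 76 and 95 higher at 6 h, 24 h and in L (28.2%, 59.0% and 86.4% of all genes). The 95 were 88.8% of the members. It gave 12 higher (18.7%) and 0 lower (0.893%) from 6 h to 24 h, and 1 lower in L (2.18%). From 24 h to L it gave 21 higher, 19.6% of the members against 70.2% of all genes. Same-numbered libraries of L with dark (lowest correlation 0.0314) and with 24 h (0.0184) were less alike in their weakest pair than those of the other comparisons. There the block may stand for a number alone. The same number was the best match for 1 of 5 replicates of L with dark, but for 4 of 5 with 24 h. Replicates 1 and 2 alone gave 1, 42, 69 and 1 higher at 1 h, 6 h, 24 h and from 6 h to 24 h, with 1, 2, 2 and 3 lower in the comparisons from 24 h on. Replicates 3 to 5 alone gave 6 higher at 6 h (8.54% of all genes). In that set 9 were higher from 6 h to 24 h (5.95%) and 0 from 24 h to L (1.53%). Lower were 2, 2, 0, 1, 0 and 1, against 1.69%, 5.52%, 3.39%, 2.30%, 0.190% and 0.0974% of all genes. Fits of the 2 groups alone gave 36 higher and 4 lower from 6 h to 24 h, 15 higher from 24 h to L, and 1 lower at each of 1 h, 6 h and 24 h. Without a low-count filter 1 and 3 were higher between lit groups. Summing joined entries left 5 higher at 6 h, and 0 higher and 0 lower from 6 h to 24 h. For DESeq2, scaling to the plastid total, the 2 groups alone, no filter and summed entries, shares over all genes are not given. Those counts are therefore not read as results about the members.

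Leaving out 1 library gave 8 to 14 higher at 6 h, 23 to 40 at 24 h and 53 to 65 in L, 0 to 3 from 6 h to 24 h and 1 to 8 from 24 h to L. For lower it gave 0 to 1 in the comparisons of 24 h and L with dark and of 24 h with 6 h, and 0 to 2 from 24 h to L. The lone lower call came without 24 h replicate 4 for 24 h, and without L replicate 2 or 3 for L. Shares over all genes are not given for the fits with 1 library left out, so their counts are not read as results about the members.

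Some named members changed sign. In L ATCG00030-ATCG00040 was at -0.69 under TMM, -0.77 with the set term added and -0.69 with DESeq2 median ratios. ATCG00490 was at -0.0286 under TMM and -0.0399 with DESeq2 median ratios. ATCG00530 was at -0.00114 under TMM and -0.156 with the set term added. ATCG00950 was at -1.26 under TMM, -0.90 with the set term, -1.28 with DESeq2 median ratios and -0.16 relative to plastid counts. ATCG01210 was at -1.61, -0.87, -1.62 and -0.20 in the same settings. At 24 h ATCG00950 was at -0.20 under TMM, -0.10 with the set term and -0.22 with DESeq2 median ratios. ATCG00690 came to 0 without 24 h replicate 4 or L replicate 3. From 6 h to 24 h ATCG00940-ATCG00950 turned to 1.66 in replicates 3 to 5 and ran from -3.93 to 1.32 with 1 library left out, the latter without 6 h replicate 1. The sums of plastid counts kept within 1 SD of their values under every alternative run, but not always their sign. With 1 library left out, the log2 difference from dark per Drosophila count ran from -0.226 to 0.835 at 1 h. It ran from -0.0623 to 0.802 at 6 h, 0.611 to 1.51 at 24 h and 0.996 to 1.97 in L. Per Arabidopsis count it ran from -0.0848 to 0.665 at 1 h against dark, and from -0.529 to 0.172 at 24 h against 6 h. The other comparisons per Arabidopsis count stayed negative. The planned count without rRNA and tRNA genes was not run, since no source here identifies them. The low-count filter kept 4 of the 111 members out of the tests.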
